A study of Mus musculus with 10 samples.

Results

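The 10 enzyme genes described here belong to serine synthesis, one-carbon metabolism, transsulfuration and asparagine synthesis, and were followed in 10 libraries of mouse bone marrow cells. They are Phgdh, Psat1, Psph, Shmt1, Shmt2, Mthfd2, Aldh1l2, Cbs, Cth and Asns, which are 10 of the 55359 genes in the deposited table, matched to mouse symbols by Ensembl identifier. The list was drawn up with the difference between the groups in these same libraries already known, so the levels and fold changes of the 10 genes are given as a description, with no test. RNA came from lineage-negative (Lin-) marrow, the cells left after depletion of those that carry markers of mature blood cells. The WT group was 5 libraries from Dhx9f/f mice, which carry floxed Dhx9 and no Cre. The cKO group was 5 libraries from Dhx9f/f;MX1 mice, which express Cre from Mx1, a promoter switched on by interferon, and a genotype field of the labels calls them a Dhx9 knock down. By the study's methods, Cre was switched on by poly(I:C), a synthetic RNA that provokes an interferon response. The methods describe the doses for MX1-Cre mice and, by default, time the analysis of mice from the first dose. Legends of other experiments apply that timing to all their mice. For the transplants, marrow of both genotypes is described as taken after the first poly(I:C) dose. Whether the WT mice of these libraries also received poly(I:C), and the age of the mice, are not given in the sources used here. Unless both groups received it, an effect of poly(I:C) and one of the genotype cannot be told apart in these libraries.

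Serine is made from a glycolytic intermediate by PHGDH, PSAT1 and PSPH acting in sequence. Serine hydroxymethyltransferases then move a carbon from serine to tetrahydrofolate, which leaves glycine, and the folate enzymes carry that carbon into purines, thymidylate and the methionine cycle, with separate sets of enzymes in the cytosol and in mitochondria. Transsulfuration joins serine to homocysteine through CBS and releases cysteine through CTH, while ASNS makes asparagine from aspartate. In many mammalian cells several of these genes are targets of ATF4, the transcription factor of the amino acid response, and red cell precursors and dividing progenitors are known for a high demand for glycine and folate-bound carbon.

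Values are FPKM, fragments relative to the length of the gene and to all those mapped in the library, in which levels of different genes can be set side by side. Depth, read from the spacing of low values, was 15066015 to 18820403 fragments (median 16476606) in WT and 13789970 to 17166186 (median 15814726) in cKO, and cKO 1 was the shallowest of the 10. In whole-gene FPKM the targeted gene went against the labels. By qRT-PCR and Western blot the study reported reduced DHX9 in bone marrow cells of Dhx9f/f;MX1 mice, where these libraries are of Lin- cells. In Lin- cells of both genotypes the study also mapped DHX9 on DNA by CUT&Tag. Dhx9 was at 65.43 to 72.42 FPKM in WT (69.7 ± 2.84, SD, n = 5) and at 130.82 to 156.49 FPKM in the libraries labelled cKO (139.9 ± 12.0, SD, n = 5), and FPKM of a whole gene cannot show whether a floxed exon was lost. For this reason WT and cKO name labels throughout. WT 3, 4 and 5 had Xist at 99.19 to 127.76 FPKM and Ddx3y at 0.05 FPKM or less, whereas the other 7 libraries had Xist at 0.03 to 0.09 FPKM and Ddx3y at 19.66 to 38.53 FPKM, so sex was mixed in WT and not in cKO. The marrow populations also differed. Summed FPKM of 27 erythroid genes was 2120 to 3683 in WT and 5629 to 9141 in cKO, and 13 of the 27 were called higher and 0 lower. Summed FPKM of 14 monocyte and dendritic cell genes was 802 to 1402 in WT and 8.32 to 234 in cKO, with 12 of 14 called lower. In such bulk samples, fewer cells of a type and less RNA per cell cannot be told apart.

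Mean FPKM was higher in cKO than in WT for 9 of the 10 enzymes and lower for 1, Shmt1. The fit over all genes (limma on log2(FPKM + 0.1), two-sided, Benjamini-Hochberg adjustment) took in the 18742 genes that averaged 0.1 FPKM or more. A gene was called when its adjusted p was below 0.05 and its level differed by a factor of 2 or more. The fit held 9 of the enzymes, since Cbs was under the minimum. Aldh1l2 met the minimum only through cKO, with means of 0.012 FPKM in WT and 1.36 in cKO. Psph, Shmt2, Mthfd2, Aldh1l2, Cth and Asns, 6 of the 9, were past both limits upward where 4.6% of all genes tested were. Of the other 3, none was past them downward where 16.8% of all genes tested were. By adjusted p alone 8 of the 9 had a positive change (16.7% of all genes) and 1, Shmt1, a negative one (28.3%). The list was made with these calls known, so nothing is read from those counts. The median log2 fold change of the 9 was 1.37, and that of all genes tested was -0.11. At a minimum of 1 FPKM on average, which leaves Aldh1l2 out, the median of the enzymes was 1.27. All 5 cKO libraries lay above all 5 WT libraries in 6 enzymes (10.6% of all genes tested) and below them in 1, Shmt1 (21.6%). The ranges overlapped in Phgdh, Psat1 and Cbs.

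**Figure D1:**
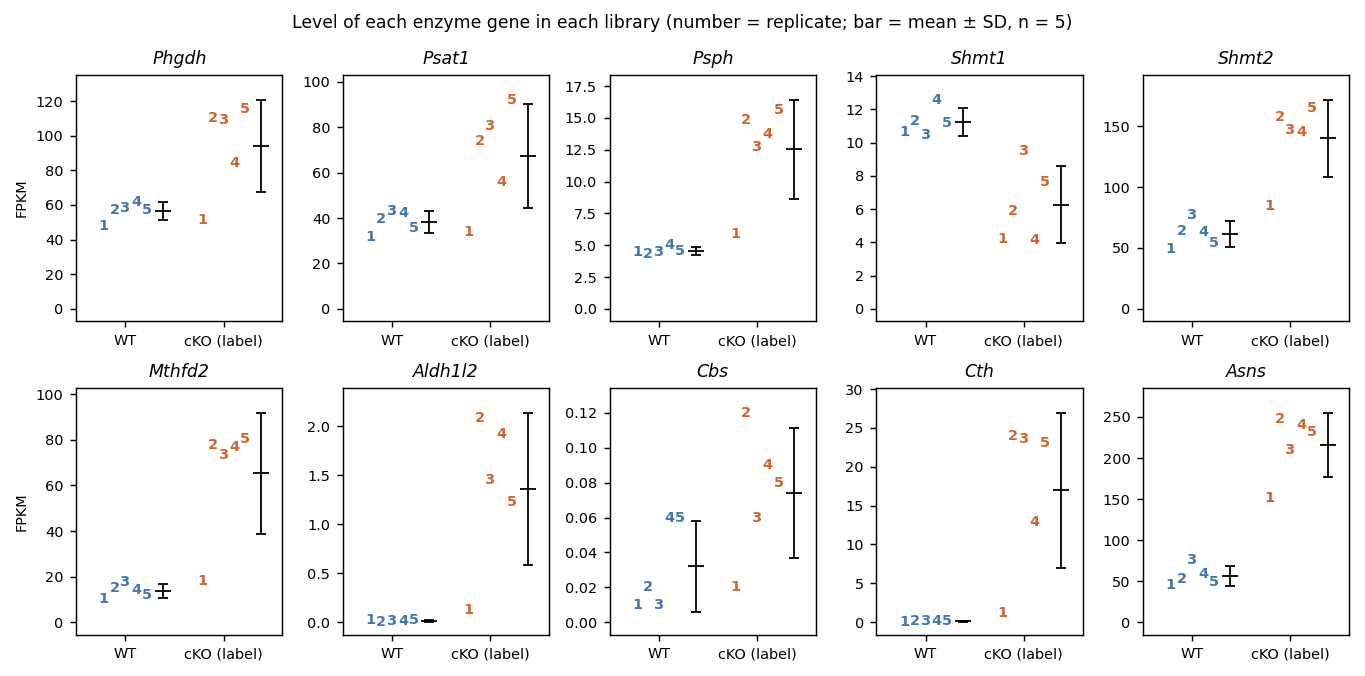
FPKM (vertical axes, each panel on its own linear scale) of the 10 enzyme genes in the 5 WT libraries (blue) and the 5 libraries labelled cKO (orange). Each digit is the replicate number of 1 library at its value, and the black bars are the mean ± SD (n = 5). In 9 of the 10 panels cKO 1 is the lowest cKO library, and Shmt1 is the panel in which cKO lies below WT.

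A single library of the cKO group stood apart in the enzymes. cKO 1 was the lowest of the 5 cKO libraries in 9 of the 10 genes, Shmt1 being the exception. It was above the WT range in 6 genes, within it in Phgdh, Psat1 and Cbs, and below it in Shmt1. cKO 2 to 5 all lay above the highest WT library in 8 genes. The shares of all genes tested with these patterns were not counted, so the counts are not read as particular to the enzymes. cKO 1 also kept more of 15 neutrophil gene transcripts, at 2720 summed FPKM against 160 to 1198 in cKO 2 to 5 and 2838 to 3895 in WT. Its mast cell, basophil and eosinophil sum was 743, against 131 to 512 in cKO 2 to 5, and its progenitor sum was 69.4, against 118 to 138.7. Its erythroid sum of 7843 and its monocyte and dendritic sum of 64.8 lay among those of the other cKO libraries. The part of these transcripts and of depth in the levels of cKO 1 was not tested. Without cKO 1 the same 6 enzymes were called, with 5.07% of 18702 genes called higher.

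**Figure D2:**
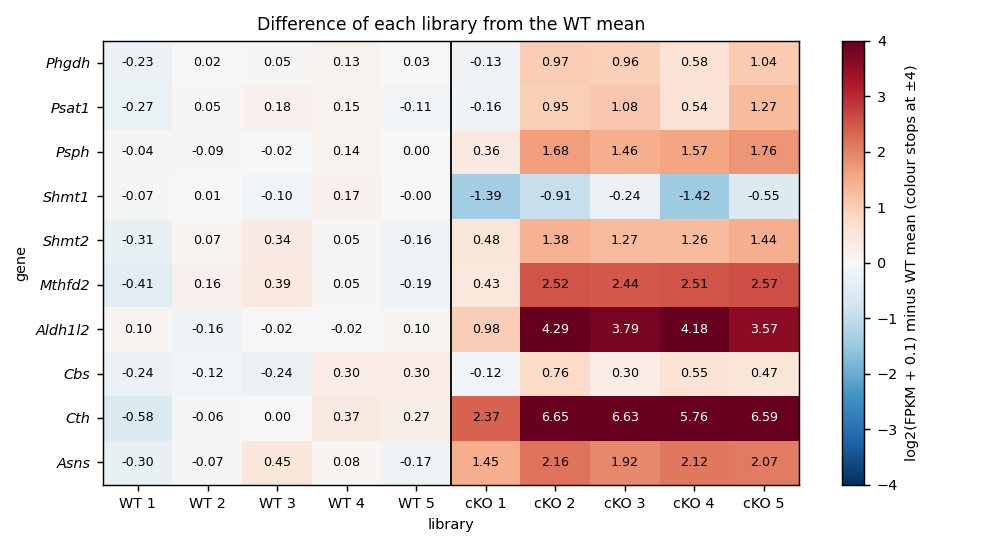
Difference of log2(FPKM + 0.1) in each library (columns) from the WT mean of the same gene (rows), printed in each cell and coloured from blue (lower) to red (higher), with colour stopping at 4 in either direction. The cKO 1 column is paler than those of cKO 2 to 5 in every row but Shmt1, whose cells are blue in all cKO libraries.

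Because ATF4 and its C/EBP partners bind the amino acid response element, the starts of the 10 genes were searched for TGATGNAA on both strands. From 250 bases before to 50 bases after the canonical start of GENCODE vM39 (GRCm39), 0 of the 10 genes held a match, beside 3.85% of 21627 gene starts. In a window extended to 1000 bases after the start, which was chosen after the first search, 5 of the 10 held a match, beside 13.2% of all starts. The matches are shown because they fall in the enzymes whose levels are described next, each as 30 bases read 5′ to 3′ on the strand of the gene with the match in capitals. The coordinates are those of the match in GRCm39, and all 5 genes lie on its minus strand.
Phgdh, 764 bases after the start, chr3:98246535-98246542: cgccttttgtcTGATGCAAgaccttggcgc
Shmt2, 488 bases after the start, chr10:127357826-127357833: agctatggagaTGATGCAAccgagcctcag
Shmt2, 510 bases after the start, chr10:127357804-127357811: agcctcagtacTTTCATCAcgcaagggtcc
Mthfd2, 435 bases after the start, chr6:83294162-83294169: ttgctgcagtcTGATGAAAtctgtgagccg
Aldh1l2, 739 bases after the start, chr10:83369259-83369266: cagacgtgggaTTGCATCAgatcacttcta
Asns, 487 bases after the start, chr6:7693225-7693232: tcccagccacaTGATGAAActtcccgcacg
The second Shmt2 match and that of Aldh1l2 read TGATGNAA on the opposite strand. In the canonical transcripts the matches of Phgdh, Shmt2, Mthfd2 and Aldh1l2 lie in intron 1, and that of Asns lies in the non-coding part of exon 1. For Asns the annotated start decides the result. With RefSeq gene starts (GRCm38.p6, an alternative chosen after the first search) the same 30 bases lie 23 bases before the start of Asns, and 16 of its 40 GENCODE transcripts start downstream of the match. By those starts 1 of the 8 matched enzymes, Asns, held the motif within 250 bases before and 50 after, beside 3.97% of 32851 starts. Some GENCODE transcripts of the other genes with a match also start downstream of it. They were 4 of 10 for Aldh1l2, 4 of 18 for Mthfd2, 3 of 34 for Phgdh and 2 of 31 for Shmt2. A match is a run of letters and was not tested as a binding site.

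**Figure D3:**
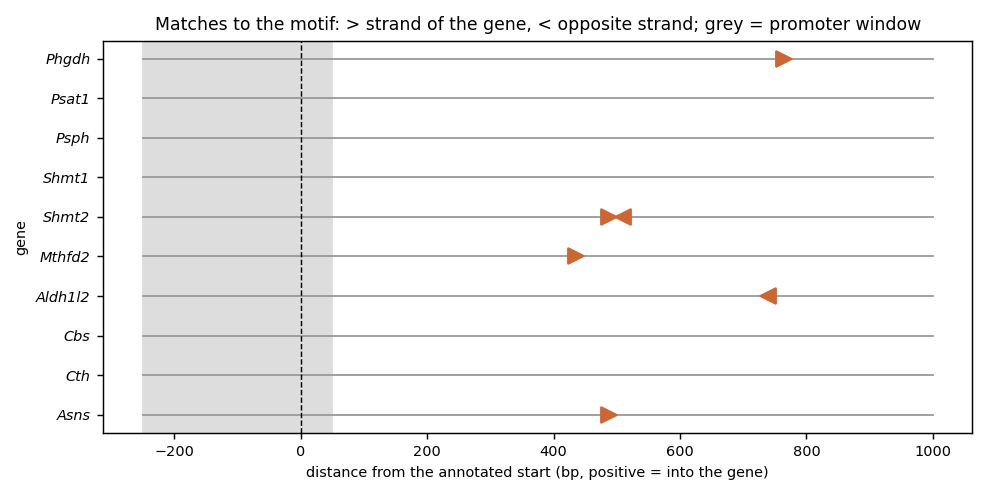
Positions of TGATGNAA matches (triangles, pointing right on the strand of the gene and left on the opposite strand) along the sequence from 250 bases before to 1000 bases after the annotated start of each of the 10 enzyme genes (rows), with distance from the start in base pairs on the horizontal axis. The grey promoter window to 50 bases after the start is empty in all 10 rows, and the 6 matches lie 435 to 764 bases after the start in 5 genes.

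Of the serine synthesis enzymes, the last differed most between the groups. Phgdh (ENSMUSG00000053398; chromosome 3 of GRCm39, 98220484 to 98255047), the first enzyme of serine synthesis, was at 47.86, 57.03, 58.2, 61.62 and 57.37 FPKM in WT 1 to 5. It was at 51.53, 110.14, 109.2, 84.22 and 115.5 FPKM in cKO 1 to 5. Thus cKO 1 lay inside the WT range, and cKO 2 to 5 lay above it. The means were 56.4 ± 5.12 in WT and 94.1 ± 26.7 in cKO (SD, n = 5), a log2 fold change of 0.68 ± 0.20 (SE) that did not reach the fold limit. cKO 2 to 5 averaged 1.86 times the WT mean, and cKO 1 was at 0.913 times that mean.

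Psat1 (ENSMUSG00000024640; chromosome 19, 15882039 to 15924701), the aminotransferase of the second step, was at 31.61, 39.52, 43.17, 42.4 and 35.46 FPKM in WT 1 to 5. The cKO libraries held 34.09, 73.75, 80.78, 55.7 and 92.17 FPKM. As for Phgdh, cKO 1 lay within WT and cKO 4 was the lowest of the 4 that lay above it. The mean was 38.4 ± 4.87 in WT and 67.3 ± 22.8 in cKO (SD, n = 5), with a log2 fold change of 0.74 ± 0.23 (SE), again under the fold limit. The ratio of Phgdh to Psat1 was 1.35 to 1.62 in WT and 1.25 to 1.51 in cKO, so the pair kept nearly the same proportion in all 10 libraries.

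Psph (ENSMUSG00000029446; chromosome 5, 129841925 to 129864513), the phosphatase that completes the route, was the scarcest of the serine synthesis transcripts. In WT 1 to 5 it was at 4.44, 4.28, 4.48, 5.04 and 4.56 FPKM. In cKO 1 to 5 it was at 5.89, 14.85, 12.69, 13.72 and 15.61 FPKM. Every cKO library lay above every WT library, cKO 1 by the smallest margin. The means of 4.56 ± 0.287 and 12.6 ± 3.89 FPKM (SD, n = 5) differed by 2.75-fold, a log2 fold change of 1.37 ± 0.23 (SE). Psat1 exceeded Psph by 7.12 to 9.64 times in WT and by 4.06 to 6.37 times in cKO, ranges that did not overlap and that included cKO 1 at 5.79.

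The 2 serine hydroxymethyltransferases differed in opposite directions. Shmt1 (ENSMUSG00000020534; chromosome 11, 60661185 to 60708167), the cytosolic enzyme, was at 10.64, 11.32, 10.44, 12.58 and 11.18 FPKM in WT 1 to 5. In cKO 1 to 5 it was at 4.22, 5.9, 9.47, 4.12 and 7.65 FPKM. All cKO libraries lay below all WT libraries, with cKO 3 only just so, and here cKO 4 and not cKO 1 was the farthest from WT. The mean was 11.2 ± 0.837 in WT and 6.27 ± 2.30 in cKO (SD, n = 5). WT exceeded cKO by 1.79-fold, with a log2 fold change of -0.90 ± 0.21 (SE) that did not reach the fold limit and passed it (-1.07) without cKO 3.

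Shmt2 (ENSMUSG00000025403; chromosome 10, 127352266 to 127358323), the mitochondrial enzyme, was at 49.08, 63.91, 76.9, 62.78 and 54.3 FPKM in WT 1 to 5. It was at 84.88, 157.81, 146.88, 145.04 and 165.09 FPKM in cKO 1 to 5. The cKO libraries were all above WT, and cKO 1 stood nearer to WT 3 than to the other 4 of its group. The means of 61.4 ± 10.6 and 139.9 ± 31.8 FPKM (SD, n = 5) differed by 2.28-fold, with a log2 fold change of 1.17 ± 0.18 (SE).

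Within each library, the ratio of Shmt2 to Shmt1 needs no scaling between libraries. It was 4.61, 5.65, 7.37, 4.99 and 4.86 in WT 1 to 5. In cKO 1 to 5 it was 20.1, 26.7, 15.5, 35.2 and 21.6. The mean ratio was 5.49 ± 1.11 in WT and 23.8 ± 7.52 in cKO (SD, n = 5). The ranges did not overlap, and cKO 1, with its low Shmt1 beside its modest Shmt2, was well inside the range of its group.

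**Figure D4:**
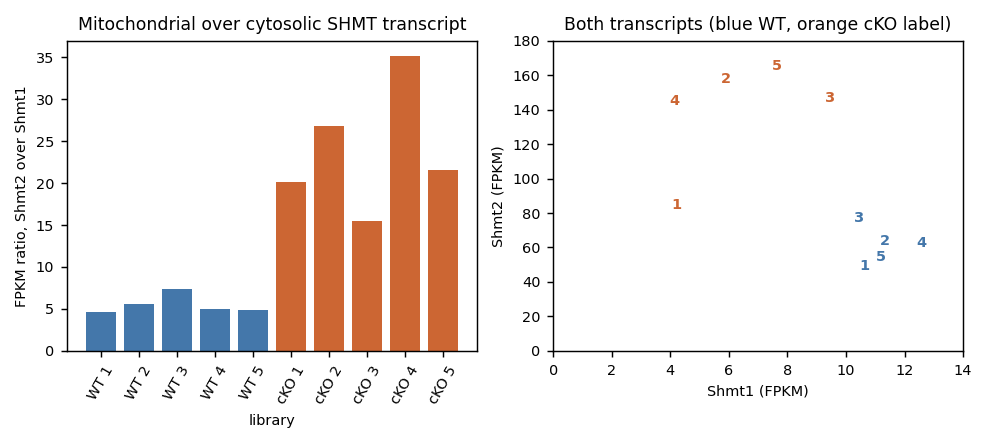
Left, FPKM ratio of Shmt2 to Shmt1 in each library (bars from 0, blue WT and orange cKO by label). Right, Shmt1 against Shmt2 in FPKM, each digit being the replicate number of 1 library. The ratio is at most 7.37 in WT and at least 15.5 in cKO, and on the right the cKO libraries lie to the upper left of the WT libraries.

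Both mitochondrial folate enzymes were higher in cKO. Mthfd2 (ENSMUSG00000005667; chromosome 6, 83282673 to 83302890), the mitochondrial dehydrogenase and cyclohydrolase that follows SHMT2, was at 10.09, 15.03, 17.59, 13.95 and 11.75 FPKM in WT 1 to 5. It was at 18.11, 77.77, 73.24, 77.0 and 80.49 FPKM in cKO 1 to 5. cKO 2 to 5 formed a narrow cluster, whereas cKO 1 lay just above WT 3, the highest WT library. The mean was 13.7 ± 2.91 in WT and 65.3 ± 26.5 in cKO (SD, n = 5), a 4.77-fold difference and a log2 fold change of 2.09 ± 0.38 (SE). Over cKO 2 to 5 the mean was 77.1 ± 2.99 FPKM (SD, n = 4), 5.64 times that of WT, and cKO 1 was at 1.32 times the WT mean.

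Aldh1l2 (ENSMUSG00000020256; chromosome 10, 83323314 to 83370005), the mitochondrial enzyme that oxidizes the formyl group of folate to carbon dioxide, was almost absent from WT. It was at 0.02, 0.01, 0.01 and 0.02 FPKM in WT 1, 3, 4 and 5 and was listed at 0 in WT 2. In cKO 1 to 5 it was at 0.12, 2.09, 1.45, 1.92 and 1.23 FPKM. All cKO libraries lay above WT, with cKO 1 more than 1 FPKM under the next. By the length of the canonical transcript these were about 6 fragments over the 5 WT libraries and 656 over the 5 cKO libraries, of which cKO 1 gave 10. Per fragment sequenced that is a ratio of 116, with a 95% interval of 53.0 to 317 that covers counting error only. The fitted log2 fold change was 3.36 ± 0.56 (SE), and it depended on the pseudocount, at 5.60 with 0.01 and 1.14 with 1. It was 3.96 without cKO 1.

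The transsulfuration enzymes were scarce in WT, and in cKO their mean levels lay far apart. Cbs (ENSMUSG00000024039; chromosome 17, 31827868 to 31856646), which joins serine to homocysteine, was at 0.01, 0.02, 0.01, 0.06 and 0.06 FPKM in WT 1 to 5. It was at 0.02, 0.12, 0.06, 0.09 and 0.08 FPKM in cKO 1 to 5. The ranges overlapped, and all values were low: about 17 fragments in WT and 37 in cKO. The ratio per fragment sequenced was 2.31, with a 95% counting interval of 1.27 to 4.37 that leaves out the spread between mice. With a mean of 0.053 FPKM over the 10 libraries, Cbs was under the minimum of the fit. Fitted with no minimum, its log2 fold change was 0.39 ± 0.20 (SE).

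Cth (ENSMUSG00000028179; chromosome 3, 157599868 to 157630739), which releases cysteine from cystathionine, was also near absent from WT. It was at 0.06, 0.13, 0.14, 0.21 and 0.19 FPKM in WT 1 to 5. In cKO 1 to 5 it was at 1.14, 24.01, 23.62, 12.91 and 23.07 FPKM. Every cKO library lay above every WT library, but cKO 1 was more than 11 FPKM under cKO 4, the next lowest. The mean was 0.146 ± 0.0586 in WT and 16.95 ± 9.98 in cKO (SD, n = 5). About 22 fragments in WT stood against 2481 in cKO, a ratio per fragment sequenced of 120 with a 95% counting interval of 78.8 to 191. The log2 fold change of 5.60 ± 0.73 (SE) ranked 9 among the 18742 genes tested, and was 3.56 with a pseudocount of 1 and 6.41 without cKO 1.

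Asns (ENSMUSG00000029752; chromosome 6, 7671667 to 7728461), asparagine synthetase, was the most abundant of the enzymes in cKO. In WT 1 to 5 it was at 44.93, 52.61, 75.56, 58.47 and 48.98 FPKM. In cKO 1 to 5 it was at 151.43, 247.66, 209.25, 240.03 and 231.88 FPKM. The groups were well separated, and cKO 1, the lowest of its group, was still at 2.70 times the WT mean. Means of 56.1 ± 12.0 and 216 ± 38.9 FPKM (SD, n = 5) differed by 3.85-fold, with a log2 fold change of 1.95 ± 0.16 (SE), the smallest standard error of the 9 enzymes fitted.

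In WT the mean levels fell into clear steps. Shmt2 (61.4 FPKM), Phgdh (56.4) and Asns (56.1) were highest and had overlapping ranges. Psat1 (38.4) followed, then Mthfd2 (13.7) and Shmt1 (11.2), which overlapped each other, and then Psph (4.56). Cth (0.146), Cbs (0.032) and Aldh1l2 (0.012) came last, each overlapping the next. Fragment numbers here rest on the canonical transcript lengths, and with the longer lengths of all exons joined they would be larger and the counting intervals narrower. Exons of Psph, Shmt1, Shmt2, Aldh1l2 and Asns share 465, 346, 727, 1056 and 391 bases with opposite-strand genes (Cct6a, Smcr8, Ndufa4l2, Nopchap1 and 1700012J15Rik). Whether strand was used in counting is not given in the sources used here, so reads of those stretches may not be assigned to 1 gene. All 10 enzyme genes lie on the minus strand.

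The neighbouring reactions were described by 7 lists of 88 genes in all, assembled by function with earlier results of these data known. Of the 77 that could be tested, 10 were called higher (4.6% of all genes), 8 were called lower (16.8%) and 59 were not called. Without cKO 1 these counts were 14 higher and 7 lower. Adjusted p-values given here are from limma, over all 18742 genes.

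In the cytosolic and nuclear folate cycle, 1 of 13 tested genes rose, 3 fell and 9 were not called. Folr1, a folate receptor, was at 0.16, 0.37, 0.96, 0.37 and 0.09 FPKM in WT 1 to 5 and at 1.23, 1.85, 1.68, 1.4 and 2.22 FPKM in cKO 1 to 5 (log2 fold change 2.09 ± 0.42, adjusted p = 0.0021). With a pseudocount of 1 it was at 0.96, under the fold limit. Ggh, which trims the glutamate tail of folates, fell from 14.6 ± 2.80 to 4.28 ± 0.968 FPKM (SD, n = 5; log2 fold change -1.75 ± 0.17, adjusted p = 6.6e-05), and its groups did not overlap. Slc46a1, the proton-coupled folate transporter (-1.32 ± 0.37, adjusted p = 0.014), and Aldh1l1, the cytosolic counterpart of Aldh1l2 (-1.01 ± 0.30, adjusted p = 0.018), were also called lower, both under 1 FPKM. Neither call held with quantile normalization (adjusted p = 0.081 and 0.15), with Xist status as a covariate (0.095 and 0.078) or with a pseudocount of 1 (log2 fold changes -0.33 and -0.35). With that covariate cKO is set against WT 1 and 2 alone, the WT libraries low in Xist. The log2 fold changes were then -1.23 and -1.06, and an effect of sex was not tested. The call of Aldh1l1 was also lost with median-ratio scaling (-0.93) and without any 1 of cKO 2 or 4 or WT 2, 3 or 4. The direction was not shared by the cytosolic enzymes as a whole: Mthfd1, the cytosolic counterpart of Mthfd2 and Mthfd1l, named after its values were seen, had means of 87.6 ± 18.1 FPKM in WT and 156.0 ± 33.7 in cKO (SD, n = 5; 0.82, adjusted p = 0.0044), under the fold limit.

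Among the other mitochondrial folate and glycine cleavage genes, 0 of 10 tested rose and 1 fell. Sardh, sarcosine dehydrogenase, was at 0.07, 0.91, 0.73, 0.92 and 0.71 FPKM in WT 1 to 5 and at 0.02 FPKM or less in every cKO library (log2 fold change -2.57 ± 0.47, adjusted p = 0.0013), and with a pseudocount of 1 the change was -0.69. Mthfd1l, the synthetase downstream of MTHFD2, was not called, at 39.1 ± 4.45 FPKM in WT and 47.1 ± 3.32 in cKO (SD, n = 5; log2 fold change 0.27, adjusted p = 0.027), and Mthfd2l, the isoenzyme of Mthfd2, was at 1.61 ± 0.118 and 1.45 ± 0.204 FPKM (-0.15, adjusted p = 0.45). Both are named after their values were seen. In the methionine cycle 0 of 8 tested genes were called in either direction. Its most abundant gene, Mat2a, which makes S-adenosylmethionine, was at 134.9 ± 19.3 FPKM in WT and 125.8 ± 27.9 in cKO (SD, n = 5; -0.12 ± 0.15, adjusted p = 0.565).

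Of 9 tested genes of cysteine and glutathione use, a list that includes sulfide oxidation, 0 were called higher and 3 were called lower. By adjusted p alone 3 were higher and 4 lower. Sqor, which oxidizes hydrogen sulfide, was at 7.35 to 10.45 FPKM (median 8.52) in WT and 1.31 to 2.61 FPKM (median 1.51) in cKO (log2 fold change -2.28 ± 0.20, adjusted p = 4.7e-05). Ethe1, the persulfide dioxygenase that follows it, fell from 21.4 ± 4.77 to 5.35 ± 1.85 FPKM (SD, n = 5; -2.01 ± 0.22, adjusted p = 0.00011). Csad, an enzyme of taurine synthesis, was called narrowly (-1.01 ± 0.19, adjusted p = 0.0015), and its fold fell under the limit with median-ratio scaling (-0.91) and quantile normalization (-0.53), with a pseudocount of 1 (-0.73) and without any 1 of cKO 2, 3 or 4 or WT 1 or 2. The 3 higher by adjusted p alone, named after their values were seen, make glutathione, and in each the groups did not overlap but the fold limit was not reached. Gclc, the catalytic subunit of the first enzyme, was at 40.08 to 53.06 FPKM in WT and 58.85 to 97.37 in cKO (log2 fold change 0.58, adjusted p = 0.0054). Gclm, its modifier subunit, was at 30.62 to 42.98 and 51.6 to 61.7 FPKM (0.64, adjusted p = 0.00027). Gss, the second enzyme, was at 4.52 to 5.38 and 6.52 to 9.13 FPKM (0.67, adjusted p = 0.00058).

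Of serine and glycine breakdown genes 1 of 4 tested rose and 0 fell. Sdsl, serine dehydratase-like, was at 20.49, 18.13, 19.83, 14.39 and 17.5 FPKM in WT 1 to 5 and at 31.13, 45.15, 37.83, 57.18 and 39.4 FPKM in cKO 1 to 5 (log2 fold change 1.20 ± 0.15, adjusted p = 0.00018). Of 17 tested genes of other amino acid synthesis and transamination, 2 rose and 1 fell. Got1, the cytosolic aspartate aminotransferase, rose from 10.1 ± 2.27 to 22.5 ± 6.08 FPKM (1.11 ± 0.23, adjusted p = 0.0023), with cKO 1 (12.18) inside the WT range. Ass1, which joins citrulline to aspartate, fell (-1.16 ± 0.34, adjusted p = 0.016). The call was lost without cKO 1 (-0.88), without cKO 4 (-0.99) and with the Xist covariate (-1.16, adjusted p = 0.085).

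The list of amino acid response regulators, which also holds downstream genes such as Chac1, had 6 called higher and 0 lower of 16 tested. Atf4 and the kinase genes Eif2ak1, Eif2ak2, Eif2ak3 and Eif2ak4 were among the 10 not called. By adjusted p alone 8 were higher and 2 lower. The 2 lower, named after their values were seen, were Cebpb and Eif2ak3. Cebpb was at 13.76 to 25.02 FPKM in WT and 4.32 to 17.44 in cKO (log2 fold change -0.92, adjusted p = 0.047). Eif2ak3 was at 5.8 to 7.62 and 3.34 to 4.96 FPKM (-0.79, adjusted p = 0.00056). Cebpg, named likewise, was at 18.43 to 24.07 and 7.34 to 21.8 FPKM (-0.56, adjusted p = 0.088). Trib3, a pseudokinase induced by ATF4, was at 0.28, 0.31, 0.33, 0.15 and 0.09 FPKM in WT 1 to 5 and at 3.6, 44.81, 52.48, 44.47 and 39.11 FPKM in cKO 1 to 5 (log2 fold change 6.43 ± 0.66, adjusted p = 7.9e-05, and 7.15 without cKO 1). Chac1, which degrades glutathione, was at 0.2 to 0.7 FPKM in WT and at 0.31, 6.75, 8.34, 2.9 and 7.33 FPKM in cKO 1 to 5 (2.78 ± 0.74, adjusted p = 0.011). It was at 3.56 without cKO 1, and its call was lost with the Xist covariate (2.31, adjusted p = 0.11). Atf5, a relative of ATF4, was at 3.31 to 5.2 FPKM in WT and at 5.18, 26.79, 27.79, 28.77 and 31.71 FPKM in cKO 1 to 5 (2.20 ± 0.44, adjusted p = 0.0021). Thus cKO 1 lay within the WT range for Chac1 and Atf5, as it did for Phgdh and Psat1. Sesn2, Nupr1 and Ddit3, the others called and outside the rule for named genes, had log2 fold changes of 1.36, 1.32 and 1.17. In cKO 1, Sesn2 was at 4.2 FPKM (WT 4.3 to 6.29), Nupr1 at 1.58 (WT 1.57 to 1.89) and Ddit3 at 13.58 (WT 6.87 to 8.48). Atf4 itself, named after its values were seen, had means of 77.4 ± 8.59 and 140.9 ± 38.9 FPKM (SD, n = 5) and was not called (0.81, adjusted p = 0.0064). It was at 67.06 to 88.77 FPKM in WT and at 76.76, 154.75, 179.68, 137.39 and 155.76 FPKM in cKO 1 to 5.

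**Figure D5:**
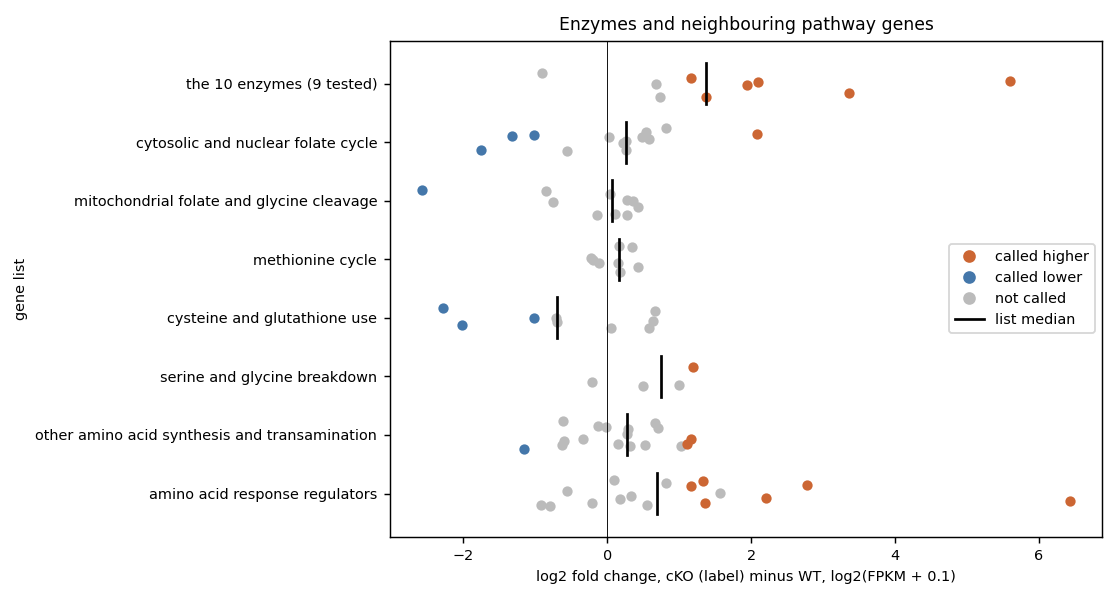
Log2 fold change of cKO minus WT on log2(FPKM + 0.1) (horizontal axis) for the 9 enzymes that were fitted and the 77 tested genes of the 7 neighbouring lists (rows), 1 point a gene, spread vertically only to part them. Orange and blue points passed both limits upward and downward, grey points did not, and the black strokes are list medians, at 1.37 for the enzymes and -0.71 for cysteine and glutathione use, the lowest of the 8 rows.

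Proliferation genes, which share a demand for folate, were set beside the enzymes. Summed FPKM of 17 S phase genes was 1047 to 1492 in WT and 1271 to 1540 in cKO, with cKO 1 highest of the 10 libraries, and 0 of 17 were called in either direction. Progenitor genes gave 148.9 to 202 in WT and 69.4 to 138.7 in cKO, with 6 of 9 called lower. Of the other populations, megakaryocyte genes summed to 303 to 1364 FPKM in WT and 89.4 to 196 in cKO, with 12 of 12 called lower. Mast cell, basophil and eosinophil genes summed to 863 to 1945 and 131 to 743 FPKM (9 of 11 lower), and stromal and endothelial genes to 34.0 to 43.5 and 8.67 to 14.6 (8 of 10 lower and 1 higher). B lymphoid genes summed to 128.8 to 150.7 and 2.75 to 60.95 FPKM (7 of 10 lower), and T and NK genes to 80.9 to 105.9 and 7.25 to 30.1 (7 of 11 lower). Of the neutrophil genes, 7 of 15 were called lower and 0 higher. No gene of these lists was at 0 in every library. The part of these shifts, the erythroid one included, in the levels of the enzymes was not tested.

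Genes with the most similar course over the 10 libraries were found by the root mean square difference of log2(FPKM + 0.1), centred on the WT mean, among the 12353 that averaged 1 FPKM or more. It is a description, since the libraries are those the list of enzymes was chosen on. Nearest to Phgdh were Slc25a4 (0.0987), a mitochondrial ADP/ATP carrier, then Psat1 (0.105) and Coq3 (0.112), of coenzyme Q synthesis. Nearest to Mthfd2 were Slc1a4 (0.262), a transporter of serine and other neutral amino acids, C5ar2 (0.277), a complement receptor, and Atf5 (0.342), and the nearest enzyme, Asns, ranked 16. Slc1a4 was at 1.33 to 3.06 FPKM in WT and at 3.92, 10.21, 10.46, 11.57 and 12.02 FPKM in cKO 1 to 5, so that cKO 1 again lay between the groups.

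Aldh1l2 and Cbs, under the minimum of 1 FPKM on average, were not compared. Cth had no close neighbour among the other enzymes, of which Mthfd2 was nearest at rank 101. Its nearest genes were Trgc1 (0.588), a constant segment of the T cell receptor gamma chain that has close copies between which reads may be split, Gm43340 (0.791), listed at 0 in all WT libraries, and Trib3 (0.827). Nearest to Asns were Ptger3 (0.196), a prostaglandin receptor, Golm2 (0.210), a Golgi membrane protein, and Cpeb4 (0.220), which binds RNA, with Mthfd2 at rank 57. In these the rise was shared by cKO 1: Cpeb4 was at 7.59 to 11.23 FPKM in WT and at 29.35, 36.76, 26.96, 38.14 and 26.78 FPKM in cKO 1 to 5.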

How the data were processed

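RNA-seq of Lin- bone marrow cells gave 5 WT and 5 cKO libraries, grouped by their titles. Per the submitters' processing notes, cutadapt 1.9.1, HISAT2 2.0.1 and HTSeq 0.6.1 were used on GRCm39, and the authors deposited 1 FPKM value for each gene in each library, with 2 decimals. The annotation, gene lengths and strand setting are not given in the sources used here. As FPKM are not counts, the authors' DESeq2 test was not run. Instead, limma 3.58.1 in R 4.3.3 (lmFit, then eBayes with its trend option) was fitted to log2(FPKM + 0.1) of the 18742 genes averaging 0.1 FPKM or more, with two-sided Benjamini-Hochberg adjusted p-values. Calls needed an adjusted p below 0.05 together with a difference of 2-fold or more. The fit was tested on simulated data. No label says that the libraries come from separate mice beyond their replicate numbers, so p-values measure the spread between these libraries.

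Depth was recovered from genes with 1 transcript of 400 to 1200 bases. Of their values up to 20 fragments, 94.7% to 95.4% per library were whole within 0.2. A gene of 1000 bases at the floor of 3 fragments had 0.159 to 0.218 FPKM. No libraries within a group were alike within sampling noise (the lowest chi-square per degree of freedom was 3.02). Intervals and floors cover counting error only. Identifiers, transcripts and start sequences came from GENCODE vM39 (GRCm39), and intervals from Python 3.11.15 with scipy 1.17.1.

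The enzymes, the 7 neighbouring lists and the cell markers were chosen with earlier results of these data known. Named genes were the 10 enzymes, Dhx9, Xist and Ddx3y, up to 3 called genes per list and direction by fold change, the most abundant gene of a list with none called, and the 3 nearest in course to Phgdh, Mthfd2, Cth and Asns. Others are named as chosen later, and 1 gene that the rule selects is not reported here. Ahsp and Vpreb1 were not matched. Alternatives were pseudocounts of 0.01 and 1, no minimum or one of 1 FPKM on average, median-ratio, equal-sum and quantile scaling, eBayes without its trend, a replicate block, Xist status as a covariate, adjusted p alone and each library left out.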

Additional observations from a re-analysis of the deposited data

Results flagged for a closer look

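In groups of 5, a library was singled out where its gap to the nearest of the others exceeded 0.71 of the group's range (Dixon's rule at 95%). Chance alone would single out about 1 in 20 groups, or 2.6 of the 52 examined, and 5 were found, 4 of them in cKO 1. Among the enzymes these were Shmt2 in cKO 1, at 84.88 FPKM against 145.04 to 165.09 in cKO 2 to 5, and Mthfd2 in cKO 1, at 18.11 FPKM against 73.24 to 80.49. Among the neighbouring genes, Trib3 was at 3.6 FPKM in cKO 1 against 39.11 to 52.48, and Atf5 was at 5.18 FPKM against 26.79 to 31.71. In WT, Sardh was at 0.07 FPKM in WT 1 against 0.71 to 0.92 in WT 2 to 5.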

How the results depend on the processing

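No log2 fold change of the 9 fitted enzymes or of the 16 neighbouring genes that the rule selects changed sign under the alternatives run. Cbs and the neighbouring genes named after their values were seen, with Sesn2, Nupr1 and Ddit3, were not refitted one by one. The same 6 enzymes were called higher in every fit but 1, at a mean of at least 1 FPKM, which leaves Aldh1l2 out (5 called), and adjusted p alone added Phgdh and Psat1. The number of enzymes called lower went from 0 to 1, Shmt1, by adjusted p alone and without cKO replicate 3. For all genes, 862 higher and 3153 lower became 356 and 1486 with a pseudocount of 1, 462 and 1827 at a mean of at least 1 FPKM, and 3138 and 5300 by adjusted p alone. Quantile normalization gave 1581 higher and 2245 lower, so that higher calls made up 41.3% of calls and not 21.5%, and it shifted the median of all genes from -0.11 to 0.10 on the log2 scale. For the neighbouring genes, 10 higher became 32 by adjusted p alone, and 8 lower became 4 with a pseudocount of 1, 5 at a mean of at least 1 FPKM, 5 with quantile normalization and 16 by adjusted p alone. The cause of these shifts was not tested, beyond the fewer genes at the higher minimum and the limit dropped with adjusted p alone. Leaving out 1 library at a time gave 762 to 948 higher and 2892 to 3268 lower over all genes, 6 to 6 and 0 to 1 enzymes, 10 to 14 and 5 to 10 neighbouring genes (5 lower without cKO replicate 4), and a median of the enzymes of 1.27 to 1.62. With the replicate block the counts over all genes were 857 higher and 3107 lower, and among the named genes the call of Aldh1l1 was lost (adjusted p = 0.059). Same-numbered libraries deviated together by a correlation of -0.010 to 0.117. Differently numbered libraries were not compared in this way, so whether the numbers mark pairs was not tested. Depth limits Cbs, Aldh1l2 and Cth in WT, at 17, 6 and 22 fragments over 5 libraries.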
